A study of Mus musculus with 31 samples.

Results

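The voltage-gated sodium and calcium channel genes of mouse cortex were taken as all gene symbols that begin with Scn and a number, Cacna, Cacnb or Cacng and that sum to at least 50 counts over the 16 mRNA libraries. Of the 20436 genes listed, 40 symbols matched and 38 reached the minimum. Just outside it were Scn4a, with 9 counts, and Cacng1, with 32 counts, both known as skeletal muscle channel genes. Just inside it were Cacna1f, a retinal calcium channel gene with 94 counts, and Scn10a, a sensory neuron sodium channel gene with 110 counts. The 38 genes comprised 19 pore-forming subunits, of which 9 were sodium channel alpha genes and 10 were calcium channel alpha1 genes, and 19 auxiliary subunits. The auxiliary genes were 4 sodium channel beta genes, 4 alpha2delta genes, 4 calcium channel beta genes and 7 gamma genes. Scn2a1, as the files spell it, is Scn2a in RefSeq.

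The libraries came from cortex dissected at postnatal day 29 to 34, and there were 4 genotypes. The labels give only the names WT, FXS, S6K1 and DKO, with no strain, allele or sex: FXS is the Fmr1-deficient model of fragile X syndrome, S6K1 lacks the S6 kinase encoded by Rps6kb1, and DKO lacks both. Polyadenylated mRNA was sequenced in 4 libraries of each genotype (batches 5 to 8, each with every genotype). Ribosome footprints, the mRNA fragments that ribosomes shield from nuclease, were sequenced in 4 WT, 5 FXS, 3 S6K1 and 3 DKO libraries. These footprint libraries formed batches 1 to 4, of which only batch 3 held every genotype. Nothing in the labels says that replicates were separate animals or that the 2 assays used the same animals, so p-values measure only the spread between these libraries.

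Voltage-gated sodium channels carry the rising phase of the action potential, and voltage-gated calcium channels couple depolarisation to transmitter release, dendritic signalling and transcription. In both, 1 very long membrane protein, the alpha or alpha1 subunit, forms the pore, and shorter auxiliary proteins set its delivery to the membrane and its gating. FMRP, the product of Fmr1, binds many mRNAs with long coding sequences and is often described as restraining their translation in neurons. S6K1 acts downstream of mTORC1, which promotes translation. The comparison of long pore-forming with short auxiliary subunits asks whether the classes differ in mRNA, in footprints and in their ratio, the translational efficiency.

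Depth was 12134624 to 17267368 counts per mRNA library and 16633416 to 34853751 per footprint library. Levels below are in CPM, the counts scaled to a common library size with TMM factors. Fmr1 footprints were 7.03 to 8.68 CPM in FXS and 8.03 to 12.8 in DKO against 105 to 138 in WT, and Rps6kb1 footprints were 7.62 to 12.8 CPM in S6K1 and below 12.8 CPM in all DKO libraries, against 26.1 to 31.7 CPM in WT. The mRNA libraries of batch 5 stood apart from those of the other 3 batches: 31 of the 38 members had a lower mean there, and the median log2 difference was -0.25 over the pore-forming and -0.32 over the auxiliary members that passed the filter, against 0.02 over all genes tested. Batch 5 held 1 library of each genotype, and batch was a term in every model except the alternative fits made without it.

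Start-site sequences are shown because mTORC1 acts most strongly on mRNAs that begin with a TOP motif, here a C at the first transcribed base followed by 4 bases that are each C or T. RefSeq (GRCm38.p6) lists 40 start sites for 29 of the 38 members. A TOP motif stood at 1 of these 40 (2.5%), against 2.505% of 32851 listed starts and 19.05% of the 63 starts of cytosolic ribosomal protein genes. Starts on 1 chromosome, which holds no member, were left out of both comparison sets. The 30-base windows below run 5′ to 3′ on the gene's strand, with 25 bases before the start in lower case and the first 5 transcribed bases in capitals. They are given for the called members that have an entry, Cacna1i (chr15:80287213-80287242, plus strand) and Cacnb4 (chr2:52558607-52558636, chr2:52675855-52675884 and chr2:52676139-52676168, minus strand), for Cacna2d1, the 1 member with the motif (chr5:15934666-15934695, plus strand), and for Rps6 (chr4:86857363-86857392, minus strand) as an example of the motif in a ribosomal protein gene.
Cacna1i: cctgcagctttccccgaagacatttGGTGT
Cacnb4, start 1: ctgaagcaggggagctgagccaatcAGAGG
Cacnb4, start 2: gccccgggtgaccgctcggctcagcGCTGC
Cacnb4, start 3: ccgcccgcctgcccgctcctcccccTCCTC
Cacna2d1: cctccgcccccgccccgcccccgccCTCTC
Rps6: gccctgggttaagcggaagtcgggcCTCTT
The Cacnb4 start 3 window is rich in pyrimidines but begins with T and so did not match. The GC box GGGCGG, on either strand, lay within the 250 bases before 37.5% of the members' starts and 32.74% of the 32851 starts. A match or its absence describes these letters in these windows.

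In WT cortex the pore-forming genes together took 0.133% ± 0.00836 (SD, n = 4) of all mRNA counts and 0.130% ± 0.0216 (SD, n = 4) of all footprint counts, and the auxiliary genes took 0.249% ± 0.0122 of the mRNA and 0.143% ± 0.0101 of the footprint counts. Within each family, counts went mostly to the neuronal members. Among the sodium channel alpha genes Scn2a1, the channel of excitatory axon initial segments, had the most mRNA at 235 CPM over the 16 libraries, and Scn10a the least at 0.490 CPM. Among the alpha1 genes Cacna1a, the P/Q-type channel of presynaptic terminals, had 265 CPM and Cacna1f 0.401 CPM. Among the sodium channel betas the lowest was Scn3b (26.2 CPM). The highest and lowest of the other auxiliary families were Cacna2d3 (228 CPM) and Cacna2d4 (3.14 CPM) among the alpha2delta genes, Cacnb3 (402 CPM) and Cacnb2 (58.3 CPM) among the calcium channel betas, and Cacng7 (205 CPM) and Cacng6 (0.912 CPM) among the gammas. CPM is not divided by coding length, so these values name the genes that dominate a family's counts and do not rank transcript numbers.

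Footprint CPM over mRNA CPM, the translational efficiency level, is less tied to gene length than CPM because length enters both counts. Other differences between the assays need not cancel, so this level is a ratio of counts and not a measured rate. Its WT median was -0.62 on the log2 scale over 16 pore-forming members and -0.16 over 19 auxiliary members, against -0.35 over the 13654 genes tested in both assays, whose 10th to 90th percentile range was -1.96 to 1.00. At or above the all-gene median lay 7 of 16 pore-forming and 10 of 19 auxiliary members, so neither class sat at an end of the range. The auxiliary median was the value of Cacng6, at -0.16 ± 0.30 (SE over libraries), on 205 mRNA counts in all. The order of the classes was not the same in every genotype. Pore-forming and auxiliary medians were -0.80 and -0.89 in FXS, -0.44 and -0.50 in S6K1, and -0.88 and -0.78 in DKO. In WT the spread within families was far wider than the gap between classes. Cacna1e, the R-type channel, was at 2.54 ± 0.14 (SE over libraries), in the 99.4th percentile of all genes, whereas the T-type channel Cacna1g was at -2.48 ± 0.16, in the 4.97th. Cacng7, one of the gamma genes known as AMPA receptor regulators, was lowest at -3.87 ± 0.16. High auxiliary levels belonged to Cacna2d1, the gabapentin-binding alpha2delta subunit, at 1.48 ± 0.19, to Cacnb4 at 1.32 ± 0.24 and to Scn2b at 1.17 ± 0.08. By family the medians were -0.62 for sodium channel alpha, -0.65 for alpha1, 0.48 for sodium channel beta, -0.18 for alpha2delta, -0.50 for calcium channel beta and -1.88 for gamma, where Cacng2, Cacng3, Cacng4 and Cacng7 were all at or below -1.88 while Cacng5, Cacng6 and Cacng8 lay between -0.16 and 0.20. No class difference in level was tested.

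**Figure D1:**
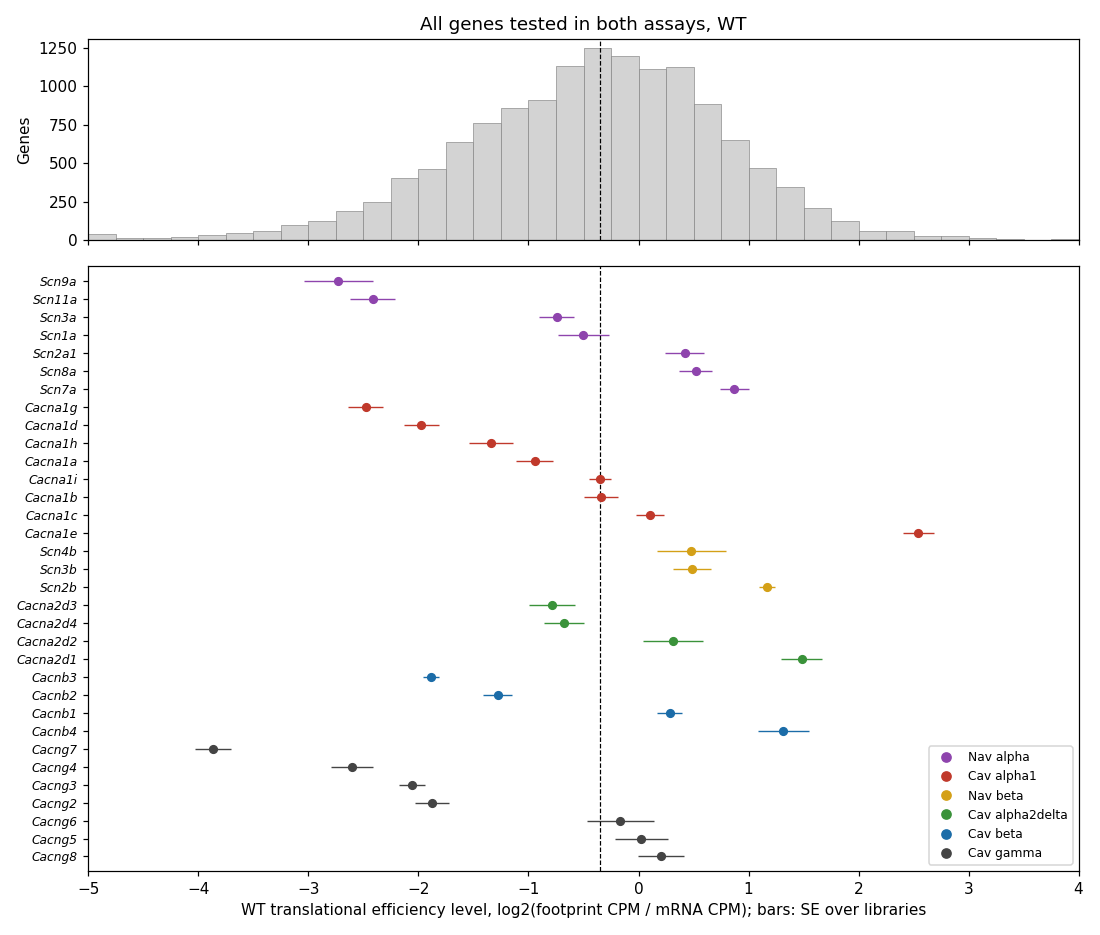
Translational efficiency level in WT, as log2 of footprint CPM over mRNA CPM on the horizontal axis: the upper panel counts all 13654 genes tested in both assays, with values beyond the axis in its end bins, and the lower panel shows 33 of the 35 members tested in both, coloured by family, with bars for the SE over libraries and a dashed line at the all-gene median of -0.35. Members run from Cacng7 at -3.87 to Cacna1e at 2.54, and each class has members on both sides of the line.

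Of the 38 members, 36 passed the low-count filter in mRNA (all but Scn10a and Cacna1f) and 35 in footprints and in both assays (Cacna1s, known from skeletal muscle, with 109 footprint counts in all, also dropped out). Across mRNA, footprints and translational efficiency, and across FXS, S6K1 and DKO against WT and DKO against FXS, 3 members were called at an adjusted p under 0.05, all in DKO against WT (edgeR quasi-likelihood test, Benjamini-Hochberg over all genes). Cacnb4 mRNA rose, and the translational efficiency of Cacna1a and of Cacna1i fell. For mRNA this was 1 of 36 members beside 5.23% of all genes tested, and for translational efficiency 2 of 35 members beside 4.85% of all genes, so that both counts lay near the background.

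Cacna1i encodes a T-type alpha1 subunit, whose channels open near rest and support burst firing. Its mRNA was 66.9, 73.8, 75.1 and 83.4 CPM in WT and 83.6, 101, 103 and 109 CPM in DKO (batches 5 to 8 in order), and DKO exceeded WT in each batch, by 0.32, 0.45, 0.45 and 0.39 on the log2 scale. Its footprints were 65.5, 63.0, 54.1 and 52.6 CPM in WT and 41.7, 43.2 and 44.9 CPM in DKO. All 3 DKO footprint libraries lay below all 4 WT libraries, and all 4 DKO mRNA libraries lay above the highest WT library. The fitted mRNA difference was 0.40 ± 0.121 (SE; edgeR adjusted p = 0.0645) and the footprint difference -0.36 ± 0.11 (adjusted p = 0.147), neither past the threshold, and translational efficiency fell by 0.76 ± 0.177 on the log2 scale, a fold of 0.589 (adjusted p = 0.0233). In FXS, mRNA was 77.7, 88.6, 107 and 87.1 CPM and footprints were 55.9, 54.5, 39.9, 51.2 and 40.6 CPM, both overlapping WT, and the efficiency difference of -0.60 ± 0.159 missed the threshold (edgeR adjusted p = 0.138). S6K1 had mRNA at 57.1, 84.1, 70.1 and 120 CPM and footprints at 51.2, 60.0 and 59.3 CPM, with an efficiency difference of -0.17 ± 0.18.

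Cacna1a encodes the P/Q-type alpha1 subunit, a main calcium source for transmitter release. Its mRNA was 187, 238, 246 and 275 CPM in WT and 207, 318, 316 and 306 CPM in DKO, and DKO exceeded WT in each batch, by 0.14, 0.42, 0.36 and 0.15 on the log2 scale. Its footprints were 135, 145, 103 and 109 CPM in WT and 108, 86.2 and 92.8 CPM in DKO. The mRNA ranges overlapped, since the batch 5 library was lowest in each genotype, and the footprint ranges overlapped as well. The fitted differences were 0.27 ± 0.102 in mRNA (edgeR adjusted p = 0.134) and -0.37 ± 0.117 in footprints (0.155), and translational efficiency fell by 0.63 ± 0.169, a fold of 0.644 (0.0349). In FXS, mRNA was 213, 300, 333 and 287 CPM, footprints were 124, 122, 93.7, 110 and 88.3 CPM, and the efficiency difference was -0.50 ± 0.151 (adjusted p = 0.187). In S6K1, mRNA was 143, 273, 254 and 349 CPM, footprints were 111, 126 and 109 CPM, and the efficiency difference was -0.28 ± 0.17 (0.764).

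Both calls were lost without single libraries. Within batch 3 (1 DKO and 1 WT library) the DKO footprint difference was -0.75 for Cacna1a and -0.54 for Cacna1i, and within batch 4 (1 DKO and 2 WT libraries) it was -0.19 and -0.25; batch 1 held DKO but no WT library, and batch 2 the reverse. Without WT footprint replicate 2 the adjusted p became 0.200 for Cacna1a and 0.120 for Cacna1i, and without DKO footprint replicate 2 it became 0.194 and 0.128.

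Cacnb4 encodes a beta subunit that brings alpha1 subunits to the membrane. Its mRNA was 113, 59.0, 64.8 and 64.4 CPM in WT and 142, 67.1, 74.0 and 85.0 CPM in DKO, with the batch 5 library far above the others in every genotype. DKO exceeded WT within each batch, by 0.33, 0.18, 0.19 and 0.40 on the log2 scale, while the ranges over all batches overlapped. The rise was 0.28 ± 0.0796, a fold of 1.22 (edgeR adjusted p = 0.0414). Without batch 5 it was 0.26 ± 0.0837 (adjusted p = 0.0893), and no call remained without the batch term (0.747). Cacnb4 mRNA was 109, 72.7, 82.4 and 78.1 CPM in FXS and 126, 70.4, 72.0 and 68.8 CPM in S6K1, with differences from WT of 0.22 ± 0.0798 (adjusted p = 0.256) and 0.16 ± 0.08 (0.674). Its footprints were 160, 190, 221 and 180 CPM in WT and 199, 198 and 197 CPM in DKO, a difference of -0.01 with a 95% interval of -0.20 to 0.18.

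**Figure D2:**
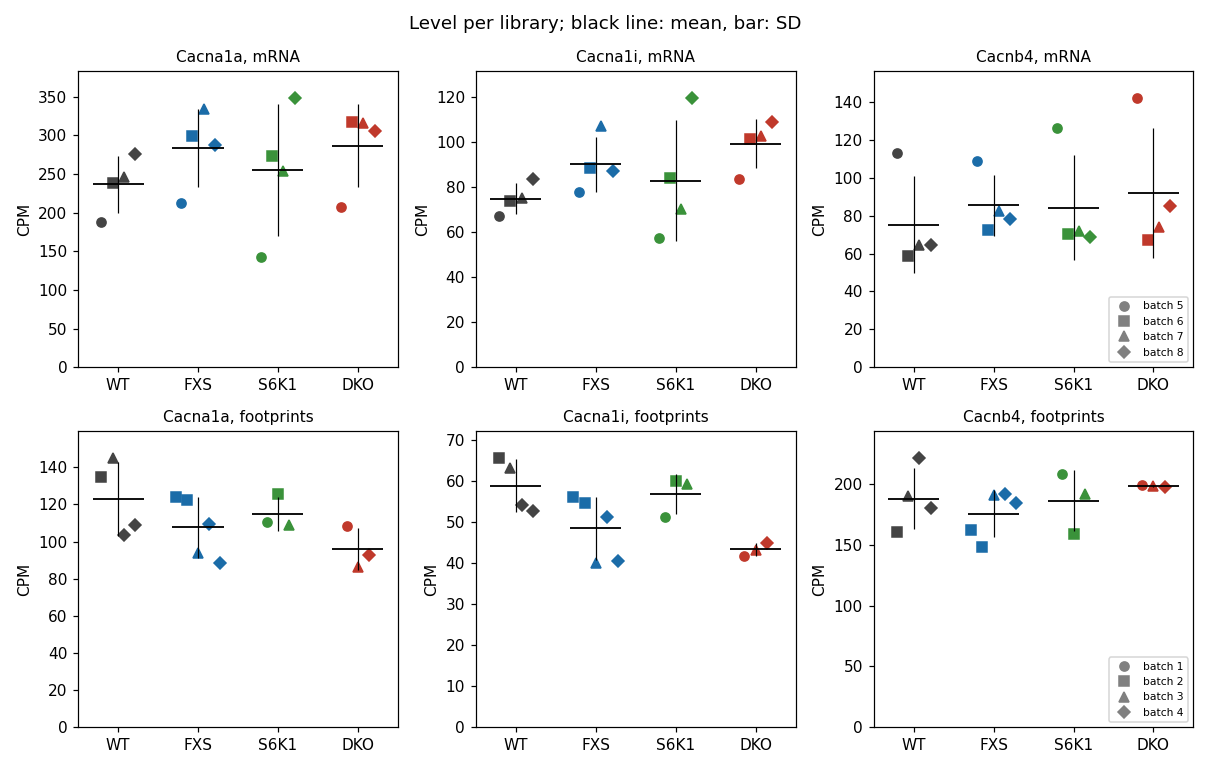
Level in CPM (vertical axis, from 0) of Cacna1a, Cacna1i and Cacnb4 in each mRNA library (top) and footprint library (bottom) by genotype; symbols mark the batch, the black line the mean and the bar the SD. The 3 DKO footprint libraries of Cacna1i, at 41.7 to 44.9 CPM, lie below the 4 WT libraries at 52.6 to 65.5 CPM, and the batch 5 libraries (circles, top row) are lowest for Cacna1a and highest for Cacnb4 in every genotype.

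In mRNA, no member was called in FXS against WT (0.155% of all genes were called) or in S6K1 against WT (0.0211%). At an unadjusted p under 0.05, 7 of 36 members were higher in FXS and none lower, beside 6.77% of all genes higher and 5.95% lower. Of these 7, 6 were pore-forming. They were the main neuronal sodium channels Scn2a1 (0.29 ± 0.0817) and Scn8a (0.24 ± 0.0924), and the calcium channels Cacna1a (0.26 ± 0.102), Cacna1b, the N-type channel (0.27 ± 0.0914), Cacna1c, the main L-type channel (0.21 ± 0.0695), and Cacna1i (0.27 ± 0.121); the auxiliary gene was Cacnb4. Scn2a1 mRNA was 172, 206, 265 and 209 CPM in WT and 194, 285, 297 and 267 CPM in FXS, higher in FXS in each batch with overlapping ranges, and its adjusted p was 0.136. Scn1a, the sodium channel most used by interneurons, differed by 0.01 ± 0.0785. The log2 difference was above 0 for all 9 alpha1 genes tested, with a range of 0.01 to 0.27, and for 5 of 8 sodium channel alpha genes, beside 47.9% of all genes.

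In DKO against WT, 10 of 36 members were higher and 1 lower in mRNA at an unadjusted p under 0.05, beside 12.2% and 10.2% of all genes. Those higher were Scn2a1 (0.22 ± 0.0818), Scn8a (0.19 ± 0.0924), Cacna1a, Cacna1b (0.21 ± 0.0915) and Cacna1i among pore-forming genes, and Scn2b (0.27 ± 0.0879), Cacnb1 (0.23 ± 0.0744), Cacnb4, Cacng7 (0.18 ± 0.0717) and Cacng8 (0.26 ± 0.101) among auxiliary genes. Apart from Cacnb4, their adjusted p values ran from 0.0645 for Cacna1i to 0.222 for Scn8a. The lower member was Scn11a, a sensory neuron channel with 126 mRNA counts in all, at 0.869 CPM in WT and 0.321 CPM in DKO (adjusted p = 0.0735). In S6K1 against WT 1 member was higher, Cacna2d2 at 0.23 ± 0.11, and 1 lower, Scn11a at -0.97 ± 0.446, beside 3.74% of all genes higher and 3.63% lower. Scn11a lay close to the low-count filter, which Scn10a, with 110 mRNA counts in all, did not pass. Whether Scn11a passed only through its higher WT libraries, which would favour lower values in DKO and S6K1, was not tested.

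In footprints, no member was called in FXS (0.165% of all genes), S6K1 (0.00717%) or DKO (0.366%) against WT. In DKO, 9 of 35 members were lower and 1 higher at an unadjusted p under 0.05, beside 9.56% and 7.50% of all genes. The lower ones included Cacna1a, Cacna1b (-0.29 ± 0.124), Cacna1e (-0.17 ± 0.0769), Cacna1i and Scn7a (-0.51 ± 0.171), and the auxiliary genes Cacna2d2 (-0.32 ± 0.127), Cacna2d4 (-0.91 ± 0.223, adjusted p = 0.0955) and Cacng8 (-0.44 ± 0.176). Cacna2d4, an alpha2delta gene known from the retina, had footprints of 1.77, 2.07, 2.06 and 2.25 CPM in WT, 1.32 to 1.58 CPM in FXS, 1.58 to 1.83 in S6K1 and 1.40, 0.965 and 1.02 CPM in DKO, so that all FXS and DKO libraries lay below all WT libraries, on low counts (570 over 15 libraries). Cacng5 was the higher member, at 0.98 ± 0.406. In FXS, Scn3b (0.32 ± 0.0865) and Cacnb2 (0.24 ± 0.0921) were higher and Cacna1a, Cacna1i (-0.32 ± 0.0892), Cacna2d2 (-0.25 ± 0.103) and Cacna2d4 (-0.54 ± 0.175) lower, beside 4.09% of all genes higher and 5.78% lower. Among the abundant sodium channels, Scn2a1 differed by 0.01 ± 0.0726 in FXS and -0.09 ± 0.0891 in DKO, and Scn8a by -0.06 ± 0.0799 and -0.08 ± 0.0979. In S6K1, 2 members were higher, among them Cacng5 (1.28 ± 0.424), and Scn7a was lower (-0.40 ± 0.177), beside 4.22% of all genes higher and 4.52% lower; the mean footprint level of Cacng5 and of Scn7a was under 10 CPM in every genotype.

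In translational efficiency, no member was called in FXS (0.0952% of all genes) or S6K1 (0.0293%) against WT. In FXS, 9 of 35 members were lower and none higher at an unadjusted p under 0.05, beside 7.70% and 5.66% of all genes. They were 7 of 16 pore-forming members (Cacna1a, Cacna1b at -0.39 ± 0.147, Cacna1c at -0.21 ± 0.0892, Cacna1e at -0.23 ± 0.0979, Cacna1i, Scn2a1 at -0.29 ± 0.117 and Scn8a at -0.30 ± 0.132) and 2 of 19 auxiliary members (Cacna2d2 at -0.38 ± 0.162 and Cacnb4 at -0.28 ± 0.106). All 8 alpha1 genes tested had a negative value, from -0.60 for Cacna1i to -0.06 for Cacna1d, an L-type channel. In DKO, 9 members were lower and none higher, beside 14.6% and 10.3% of all genes: 4 pore-forming (Cacna1a, Cacna1b at -0.51 ± 0.165, Cacna1i and Scn2a1 at -0.31 ± 0.131) and 5 auxiliary (Scn2b at -0.40 ± 0.141, Cacna2d2 at -0.54 ± 0.18, Cacna2d4 at -0.87 ± 0.319, Cacnb4 at -0.29 ± 0.117 and Cacng8 at -0.71 ± 0.212). Cacng8, another AMPA receptor regulator, came nearest to a call (adjusted p = 0.0537). Because efficiency is the footprint difference minus the mRNA difference, these values are not a further measurement: for Scn2a1 and Scn8a the mRNA term made up most of the difference, and for Cacna1a in DKO both terms contributed. In S6K1, Cacng5 was higher (1.12 ± 0.515) and Cacng8 lower (-0.45 ± 0.213), beside 3.17% of all genes higher and 4.34% lower.

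**Figure D3:**
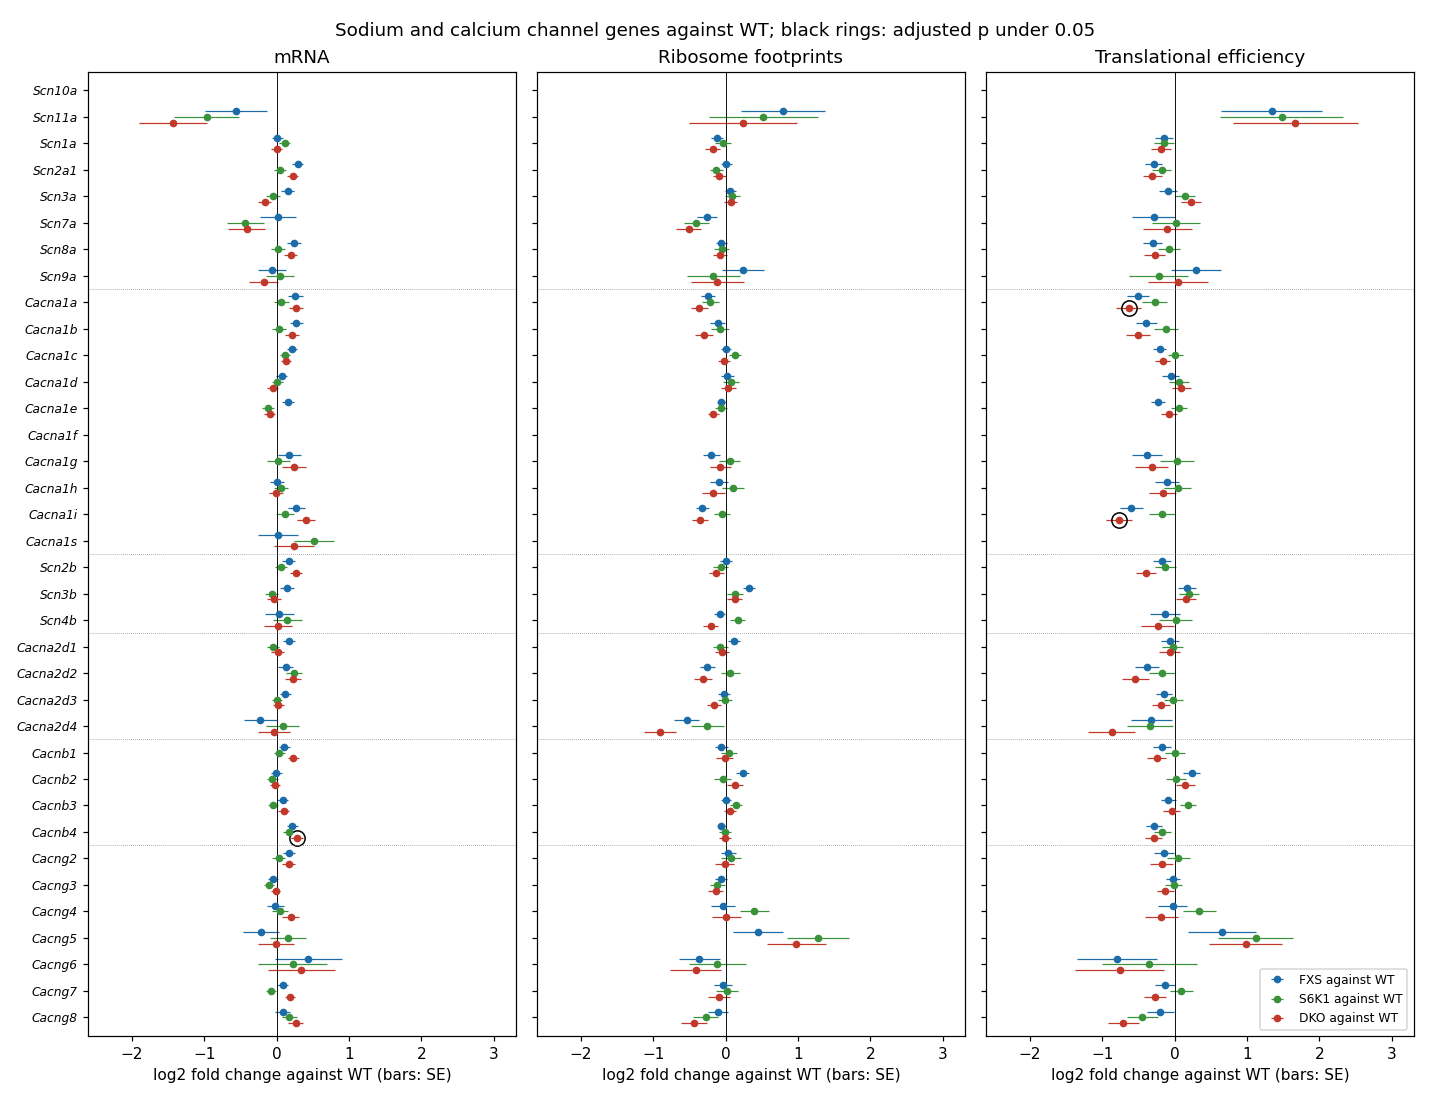
Log2 difference from WT (horizontal axis) in mRNA, footprints and translational efficiency for 36 of the 38 members in FXS, S6K1 and DKO, with bars for the SE and dotted lines between families; members without a point did not pass the filter. The 3 values ringed in black (Cacnb4 in mRNA, Cacna1a and Cacna1i in translational efficiency, all in DKO) have an adjusted p under 0.05, and the wide bars belong to members of low counts such as Scn11a and Cacng6.

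The comparison of classes gave small gaps between pore-forming and auxiliary members. In FXS against WT the median log2 difference was 0.15 for pore-forming and 0.08 for auxiliary members in mRNA (-0.01 over all genes), -0.06 and -0.04 in footprints (0.00) and -0.22 and -0.13 in translational efficiency (-0.01). In DKO against WT the medians were 0.10 and 0.10 in mRNA (0.00), -0.10 and -0.09 in footprints (-0.01) and -0.16 and -0.23 in efficiency (-0.02). In S6K1 against WT they lay between -0.04 and 0.04 for both classes in every measure. Over these 3 comparisons and DKO against FXS the pore-forming minus auxiliary difference ran from -0.11 (mRNA, DKO against FXS) to 0.09 (efficiency, DKO against FXS). These medians of fitted, batch-adjusted differences have no value per library. A related quantity does, the median log2 CPM of pore-forming minus that of auxiliary members. Its SD between libraries of a genotype, batch differences included, ran from 0.05 (DKO) to 0.30 (S6K1) in mRNA. In footprints it ran from 0.09 (DKO) to 0.25 (S6K1). The auxiliary class holds alpha2delta genes, with a median span of 285 kb, and calcium channel beta genes, with 135 kb. Both exceed the pore-forming median of 111 kb, though span is not coding length. Only the alpha2delta genes were left out in a further comparison. Without them the auxiliary medians in DKO against WT were 0.17 in mRNA and -0.01 in footprints. The pore-forming minus auxiliary difference went from 0.00 to -0.06 in mRNA and from -0.01 to -0.09 in footprints. Both classes lay on the same side of all genes in FXS and DKO, with mRNA above and efficiency below: efficiency was negative for 13 of 16 pore-forming and 16 of 19 auxiliary members in FXS, and for 11 of 16 and 16 of 19 in DKO, while 47.7% and 47.9% of all genes had a positive value. Members share libraries and are not replicates, FXS and DKO share the WT libraries, and no test was made over the lists.

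Within mRNA batches the class medians of FXS against WT were 0.17, 0.12, 0.16 and 0.06 for pore-forming and 0.13, 0.22, 0.09 and 0.03 for auxiliary members in batches 5 to 8, against all-gene medians between -0.01 and 0.01. For DKO they were 0.09, 0.09, 0.00 and 0.08, and 0.02, 0.14, 0.11 and 0.08. S6K1 gave -0.27, -0.01, 0.00 and 0.28 for pore-forming members, so that single S6K1 libraries differed from WT by more than the FXS and DKO medians but in opposite directions. The pore-forming share of all mRNA counts, in batch order, was 0.123%, 0.129%, 0.140% and 0.140% in WT, 0.135%, 0.148%, 0.168% and 0.155% in FXS, 0.132%, 0.144%, 0.151% and 0.156% in DKO and 0.0952%, 0.134%, 0.140% and 0.178% in S6K1.

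**Figure D4:**
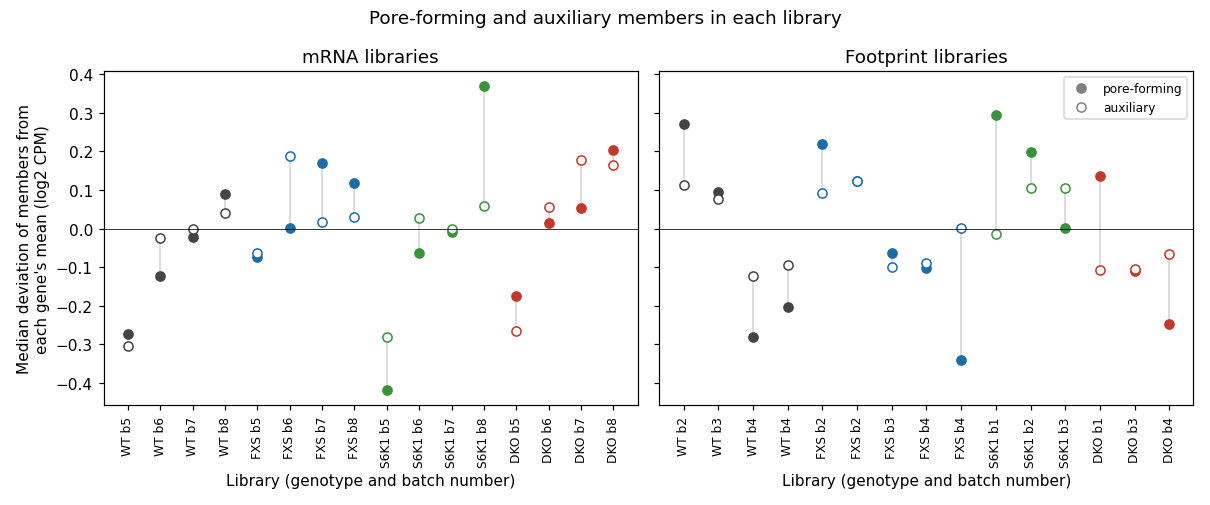
Median over the pore-forming (filled) and auxiliary (open) members of the deviation of log2 CPM from each gene's mean (vertical axis), for every mRNA library (left) and footprint library (right), labelled by genotype and batch. In mRNA both classes are low in every batch 5 library, from -0.42 to -0.06, and the pore-forming median of the S6K1 library of batch 8 is highest at 0.37; in footprints the pore-forming medians run from -0.34 to 0.29 and overlap between all genotypes.

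Gene length was set beside these values as a description. The RefSeq span of the pore-forming genes had a median of 111 kb and that of the auxiliary genes 40.5 kb. Over all genes, the median mRNA difference in FXS was 0.05 for the 892 genes of 200 kb or more and -0.04 for the 3115 genes under 10 kb, a class with no member, and the median efficiency difference was -0.10 for the 887 tested genes of 200 kb or more. The 8 members of 200 kb or more had 0.17 in mRNA and -0.18 in efficiency. The 11 members of 100 to 200 kb had median differences of 0.15 in mRNA and -0.29 in efficiency, beside 0.03 and -0.05 over all genes of that span, and the 10 members of 10 to 50 kb had 0.08 and -0.13 beside -0.02 and 0.01. The members of 50 to 100 kb, 7 in mRNA and 6 in efficiency, did not stand apart in FXS, at -0.02 and -0.03 beside 0.01 and -0.03. In DKO the efficiency medians were -0.24, -0.15, -0.28 and -0.12 for members from the 10 to 50 kb class upward, beside 0.01, 0.04, 0.01 and -0.05 over all genes.

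DKO against FXS bears on what the loss of S6K1 changes when Fmr1 is also lost. No member was called in mRNA (0.0281% of all genes), footprints (0.0143%) or efficiency (0.0146%). At an unadjusted p under 0.05, Cacna1e (-0.26 ± 0.0788) and Scn3a, a sodium channel most used before birth (-0.32 ± 0.0917), were lower in mRNA, beside 4.59% of all genes, and none was higher, beside 5.21%. No member passed in footprints (2.76% of all genes higher, 3.43% lower), and Scn3a was higher (0.33 ± 0.137) and Cacng8 lower (-0.51 ± 0.211) in efficiency (4.45% and 3.90%). For the called members the differences in efficiency were -0.13 for Cacna1a, with a 95% interval of -0.48 to 0.22, and -0.16 for Cacna1i, with an interval of -0.53 to 0.21, which leaves room for a difference in either direction. The interaction, which asks whether the effect of losing Fmr1 depends on S6K1, called 0 genes in any measure by edgeR, with 3.50% of genes in mRNA, 3.07% in footprints and 4.14% in efficiency at an unadjusted p under 0.05. Among the members Scn3a in mRNA (-0.27 ± 0.13) and Scn3b (-0.33 ± 0.141) and Scn4b (-0.29 ± 0.131) in footprints were at that level, and none in efficiency.

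Of 40 genes of known channel partners, anchors and regulators, all were tested in both assays, and 3 were called in mRNA (5.23% of all genes) and 2 in efficiency (4.85%), near the background. In DKO against WT the mRNA of Camk2b, a calmodulin-dependent kinase subunit (0.25 ± 0.0637, edgeR adjusted p = 0.0270), and of Nfasc, an axon initial segment adhesion protein (0.31 ± 0.0759, 0.0223), rose, and that of Gem, a small GTPase that inhibits calcium channels, fell (-0.97 ± 0.280, 0.0456). Translational efficiency fell for Nfasc (-0.79 ± 0.167, 0.0176) and for Stac2, an adaptor of L-type channels (-0.46 ± 0.123, 0.0345). No partner was called in footprints of DKO, in FXS or S6K1 against WT or in DKO against FXS. The median partner difference was 0.10 in mRNA and -0.09 in efficiency in FXS, and 0.08 and -0.09 in DKO.

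The authors' deposited tables cover FXS and DKO against WT. Shares of all genes from them are over the genes with an adjusted p. For DKO and FXS these were 11128 and 6885 genes in mRNA, 12083 and 10911 in footprints, and 12004 in each efficiency table. They are not on the same footing as the edgeR shares above. In the authors' deposited table for DKO mRNA, 3 of the 28 members with an adjusted p were higher, beside 5.70% of all genes: Cacna1i at 0.40 (0.0140), Cacnb1 at 0.23 (0.0428) and Cacnb4 at 0.28 (0.0261). In the authors' deposited table for FXS mRNA, Scn2a1 was higher at 0.30 (0.0351), 1 of 27 members, beside 2.21% of all genes. In the authors' deposited tables for footprints no member had an adjusted p under 0.05, beside 2.47% of all genes in DKO and 1.18% in FXS, and in those for translational efficiency none had, beside 0.725% and 0.0167%. The efficiency difference of DKO in the authors' deposited table was -0.75 for Cacna1i (0.0821) and -0.63 for Cacna1a (0.242), so the 2 efficiency calls above are not calls there.

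In bulk cortex, fewer cells of a type and less RNA per cell cannot be told apart, and the members are mostly neuronal genes. Of 11 marker lists, the excitatory neuron list had 3 of 6 genes higher in mRNA and 2 of 6 lower in efficiency in DKO against WT, where 3.17% of all genes were higher and 2.06% lower in mRNA and 3.00% were lower in efficiency; its summed mRNA was 2676 to 3879 CPM in WT, 2890 to 4456 in FXS, 2560 to 3795 in S6K1 and 2912 to 4456 in DKO, and its summed footprints were 3331 to 3967, 3057 to 4069, 2606 to 3106 and 2787 to 3941 CPM. Oligodendrocyte markers had 3 of 10 genes lower in footprints in FXS (0.165% of all genes called in either direction) and in DKO (0.366%), 1 lower in mRNA and 6 lower in efficiency in DKO, and 1 lower in efficiency in S6K1 (0.0293%); the summed footprints were 2937 to 4267 CPM in WT, 1875 to 2812 in FXS, 2771 to 3086 in S6K1 and 1979 to 2889 in DKO. In DKO, oligodendrocyte precursor markers had 2 of 6 genes higher in mRNA and 2 lower in efficiency, and the endothelium list 1 of 6 lower in mRNA. The interneuron list had 1 of 7 lower in mRNA in FXS (0.155%) and in DKO. The astrocyte, microglia, striatum, thalamus, hippocampus and choroid plexus lists had no call in any comparison, and no listed marker was at 0 over the libraries of any genotype. The summed choroid plexus markers ran from 7.00 to 580 CPM over the WT mRNA libraries. The excitatory neuron list had median log2 differences from WT of 0.16 in mRNA and -0.33 in efficiency in FXS. They were 0.08 and -0.33 in S6K1, and 0.23 and -0.48 in DKO. Higher mRNA with lower efficiency was therefore not particular to the channel genes. The part of these shifts in the members' values was not tested.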

How the data were processed

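Cortex of 4 genotypes was measured by polyadenylated mRNA sequencing (16 libraries) and ribosome profiling (15 libraries). The deposited tables hold raw counts per gene symbol over coding sequences, per the file headers. The submitters' processing notes name mm10, cutadapt 2.0, Bowtie2, TopHat2 and RSEM without roles; the strand of counting is not given in the sources used here. The authors' 6 deposited comparison tables hold, per the file headers, log2 fold changes with their SE, a test score (the fold change over its SE), p-values with adjusted p-values, and a mean signal over samples.

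Counts were tested with edgeR 4.0.16 (quasi-likelihood test, robust) in R 4.3.3, with batch and genotype as terms, all 4 genotypes fitted together, TMM factors and edgeR's filter on low counts, which left 14215 genes in mRNA, 13953 in footprints and 13654 in both. Translational efficiency was the footprint minus mRNA contrast in 1 model of all 31 libraries. Adjusted p is Benjamini-Hochberg over all genes tested, called at 0.05. Intervals use the t quantile on 9 residual degrees of freedom in mRNA, 8 in footprints and 17 in efficiency. Log2 values per library use a pseudocount of 0.5 CPM. The fits were also run on simulated counts with changes in DKO footprints only. These counts had the same dispersion for every gene and no batch differences, so they do not cover the batch structure of the real libraries. DESeq2 1.42.0 and limma 3.58.1 were among the alternatives. Figures were drawn with matplotlib 3.10.9.

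By rule the text names members called in any comparison, the highest and lowest of each family and those below the filter; members named at an unadjusted p under 0.05 or for their efficiency level were chosen after their values were seen. Family extremes were to be set per coding length; no coding lengths were used here, so they rest on CPM, and gene span was added as a description after seeing the data. The members and lists were chosen with earlier results of these data known. Reads of near-identical sodium channel alpha genes could be split between them by the counting. Libraries of one batch deviated together: the median correlation of deviations from genotype means was 0.271 over 24 same-batch pairs in mRNA and 0.298 over 20 in footprints, against -0.136 and -0.0989 between batches. No 2 libraries agreed within counting noise. The individual values of 2 members are not reported here; both are kept in every count and median.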

Additional observations from a re-analysis of the deposited data

Results flagged for a closer look

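Of 24 sets of 4 or 5 libraries looked at for a library far from the others (the 3 called genes and the class difference), 4 held one, and chance gives about 1 in 20 for independent sets, which these are not, since they share libraries. Cacnb4 mRNA was 113 CPM in WT replicate 1 against 59.0 to 64.8 in the other libraries, and 126 CPM in S6K1 replicate 1 against 68.8 to 72.0. Cacna1a mRNA was 207 CPM in DKO replicate 1 against 306 to 318. These 3 libraries were from batch 5. The median log2 CPM of pore-forming minus that of auxiliary members was -0.24 in WT mRNA replicate 3 against 0.01 to 0.05 in the other WT libraries. None of the 106 interactions tested over the members was called.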

How the results depend on the processing

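No called member changed direction. The count of members called moved as follows. With DESeq2 it was 1 in FXS mRNA (2.02% of the 10081 genes given an adjusted p were called), 3 in DKO mRNA (9.95% of 10908), 2 in FXS efficiency (2.70% of 5712) and 5 in DKO efficiency (10.1% of 11536). These 5 were Cacna1a, Cacna1b, Cacna1i, Cacna2d2 and Cacng8. DESeq2 gave no adjusted p to the remaining genes, so its shares are not on the same footing as the edgeR shares. With only the 2 genotypes compared it was 5 in FXS mRNA (Cacna1a, Cacna1b, Cacna1i, Scn2a1 and Scn8a; 3.20% of all genes) and 3 in DKO mRNA (4.52%), and with limma voom 2 in DKO mRNA (4.69%). Without the batch term (no replicate block) it was 0 in DKO mRNA and 0 in DKO efficiency, where 0.0141% and 0.0146% of all genes were called. In that fit the pore-forming minus auxiliary median turned from -0.04 to 0.23 for S6K1 footprints and from -0.01 to 0.13 for DKO footprints. It went from 0.09 to 0.28 for DKO against FXS in efficiency. Without batch 5 the count of members called was 0 in DKO mRNA (3.38% of all genes).

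Leaving out 1 library at a time gave 0 to 1 members in DKO mRNA, where 0.496% to 7.64% of all genes were called, and 0 to 5 in DKO efficiency, where 0.0583% to 8.04% were. The DKO mRNA count was 0 without WT replicate 1, 2 or 3 or DKO replicate 1, 3 or 4; without WT replicate 4 it was 1, but Cacnb4 was not the member called (adjusted p = 0.0617). The efficiency count was 0 without mRNA WT replicate 2 or 3, mRNA DKO replicate 3, footprint WT replicate 2 or footprint DKO replicate 2. It was 1 without mRNA DKO replicate 1 or 2 or footprint DKO replicate 3, and 5 without footprint WT replicate 3, the fit with 8.04%. Over all alternatives the adjusted p ran from 0.0213 to 0.747 for Cacnb4 mRNA, 0.0113 to 0.200 for Cacna1a efficiency and 0.00357 to 0.128 for Cacna1i efficiency. Some alternatives used fewer libraries than the main fit and others used all of them. The cause of the moved counts was not tested. The planned levels per coding length and coding length classes were not run. With 3 to 5 libraries a group, depth limits little for abundant members but leaves Scn11a and Cacng6 imprecise. Scn10a and Cacna1f did not pass the low-count filter and have no estimate in the main fits.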
